A study of Mus musculus with 4 samples.

Results

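The genes described here are 55 named genes of mouse chromosome 4 that lie between Ror1 and Hivep3 and are taken in the order of the list. That order is the one along the chromosome in the annotation used here, except that Acot11 precedes Ssbp3, Lrp8 and Magoh precede Cpt2, and Eps15 precedes Rnf11. The interval was chosen by the log2 ratios of these same arrays, in which genes lying there were lower in one genotype, so the members' ratios are given as a description with no test. A probe was matched to 51 of the 55, of which 43 were matched by the gene name of the probe and 8 only through a RefSeq accession listed for it (Slc35d1, Acot11, Scp2, Pomgnt1, Prdx1, Ipo13, Ppih and Foxj3). No probe was matched to Mier1, Usp24, Zfyve9 or Eif2b3. The probe of Lepr, the leptin receptor, stood well over background by the scanner's criterion on 0 of 4 arrays, which left 50 measured members among 165 measured named genes of the interval. All samples were mammary tumours of the earliest labelled stage (T1) from FVB/N females aged 26 weeks. Of the 4 mice, 2 carried the transgenes MMTV-cdc25a and MMTV-neu (Cdc25a;neu) and 2 carried MMTV-neu alone (neu), so neu was present in every mouse and the added transgene was Cdc25a. Each Cdc25a;neu tumour was hybridised against 1 neu tumour on 2-colour Agilent arrays and again with the dyes exchanged, which gave 2 mouse pairs on 4 arrays. The mouse mammary tumour virus promoter, which drives both transgenes, is active mainly in mammary epithelium, whereas the RNA came from whole tumours. In such bulk samples, fewer cells of a type and less RNA per cell cannot be told apart.

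Genes that neighbour each other on a chromosome need share no function, but they share the number of copies of their stretch of DNA. This stretch of mouse chromosome 4 corresponds to part of the short arm of human chromosome 1. Losses from mouse chromosome 4 are known from mammary tumours driven by neu, the rodent form of the receptor Erbb2, and Cdc25a is the phosphatase that removes inhibitory phosphates from cyclin-dependent kinases. DNA was not measured in these samples, so no copy number can be read from the values below. The members have many roles, among them signalling, lipid and heme metabolism, ion and sugar transport, and the handling of RNA.

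Log2 ratios are given throughout as Cdc25a;neu over neu, so that a negative value means less signal in the Cdc25a;neu tumour. Errors are SDs between the 2 pairs, since the 2 arrays of a pair carry the same RNA, and the number of mice limits the precision. The share of spots well above background was 78.5% to 92.2% per array for green and 82.7% to 87.9% for red. Of the 50 measured members, 45 were well above background in both channels on all 4 arrays and 0 were saturated. In the limma fit across all genes, 0 of 32600 genes passed an adjusted p of 0.05 (0% called), with a lowest adjusted p of 0.214. At an unadjusted p under 0.05 the same fit held 3117 genes (9.56%), with 23 members lower (5.64% of all genes) and 0 members higher (3.92% of all genes), counts from which nothing is read because the same contrast chose the interval. Under other settings, 882 of 32603 genes passed the adjusted threshold when the 4 arrays were taken as units with pair as a random block. With median centring in place of loess, 862 of 32603 genes passed. The 0 members that passed limma became 4 of 50 with median centring (Atp6v0b, Scp2, Tmem59 and Urod) and 9 of 50 with arrays as units. Nothing is read from these counts of members either, for the same reason.

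The measured members had a median log2 ratio of -0.33, against 0.0034 over all 32603 genes and transcripts with a value. Their mean ratios ran from -0.97 for Tmem59 to 0.12 for Dab1. Of the 50, 28 were lower on all 4 arrays, a pattern that 12.3% of all genes showed, and 2 were higher on all 4 arrays, as were 14.6% of all genes. With median centring in place of loess, 15 members were lower on all 4 arrays and 0 were higher on all 4. The shares of all genes given here are those with loess, so the counts with median centring have no share to be set against. By pair, 35 members were lower in both pairs (28% of all genes) and 6 were higher in both (32% of all genes). A difference of at least 0.3 below 0 in both pairs was seen for 13 members (1.96% of all genes). Since the members were listed for being lower in this contrast, these shares describe the list and nothing is read from them. The median of the members was -0.43 and -0.36 on the 2 arrays of pair 1 and -0.20 and -0.13 on the 2 arrays of pair 2, while the median of all genes lay between -0.0084 and 0.012 on each array.

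**Figure D1:**
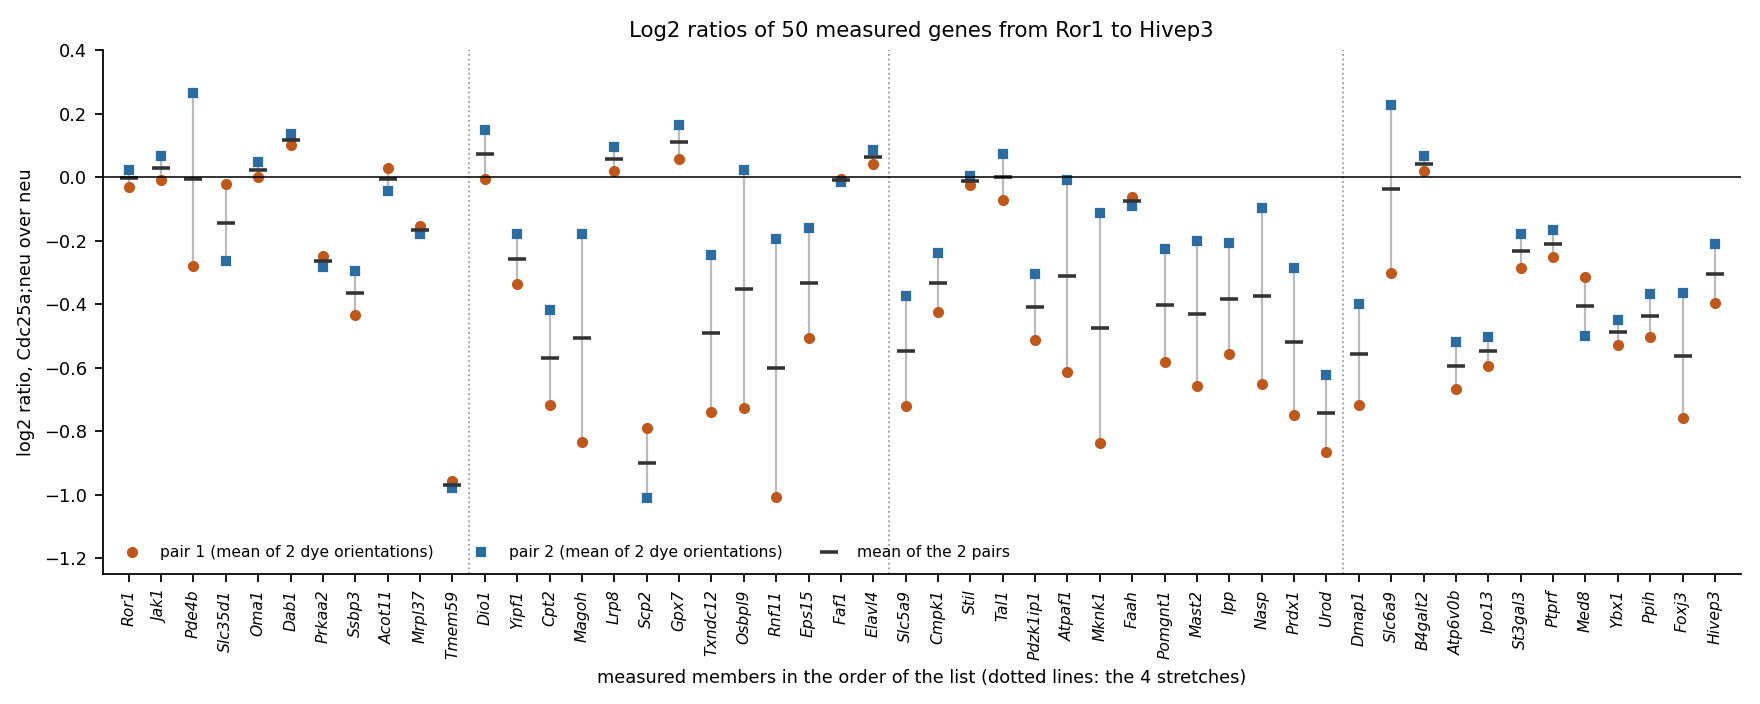
Log2 ratio of Cdc25a;neu over neu (vertical axis) for the 50 measured members in the order of the list; circles are pair 1, squares pair 2 (each the mean of 2 dye orientations), dashes the mean of both pairs and dotted lines the borders of the 4 stretches described in the text. Most members lie below 0 in both pairs (35 of 50), pair 1 lies lower than pair 2 for 41 of 50, and the means of the members from Ror1 to Dab1 lie between -0.14 and 0.12.

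The 3 members with the lowest mean ratios were Tmem59, Scp2 and Urod. The third place depended on the signals: Ipo13 stood there with processed signals (-0.80, against -0.75 for Urod) and with the scanner's log ratio (-0.81 against -0.76), and Eps15 and Ipo13 stood before Urod in the authors' table (-0.82 and -0.81 against -0.77). Values on the arrays are given here and below in 1 order: pair 1 with the Cdc25a;neu tumour in Cy5, pair 1 with it in Cy3, pair 2 with it in Cy5, and pair 2 with it in Cy3. Tmem59, which encodes a membrane protein of the Golgi apparatus and of endosomes, had log2 ratios of -0.77, -1.15, -0.81 and -1.15. All 4 arrays were low, by nearly the same amount in both pairs, and the mean of -0.97 ± 0.02 (SD, n = 2 pairs) is a 1.96-fold lower signal. Its log2 signal was 12.42 and 12.32 in the neu mice of pairs 1 and 2 and 11.46 and 11.34 in the Cdc25a;neu mice, with no overlap. Scp2 encodes a sterol carrier protein and a peroxisomal thiolase that shortens branched side chains. Its ratios were -0.90, -0.68, -1.05 and -0.97, a mean of -0.90 ± 0.16 (SD, n = 2 pairs) or 1.87-fold lower. The log2 signals of Scp2 were 10.01 and 10.20 in the neu mice against 9.22 and 9.19 in the Cdc25a;neu mice, so that the genotypes did not overlap. Urod, uroporphyrinogen decarboxylase of the heme pathway, had ratios of -0.93, -0.80, -0.84 and -0.40. Its mean was -0.74 ± 0.17 (SD, n = 2 pairs), 1.67-fold lower. The neu mice had log2 signals of 11.21 and 10.94 for Urod and the Cdc25a;neu mice 10.35 and 10.32, again without overlap.

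The promoters of these 3 members are shown because these had the lowest means with the normalization used for the values above. Each is the 250 bases before the gene start of the RefSeq table for GRCm38.p6, read 5′ to 3′ on the strand of the gene, at chr4:107178380-107178629 on the + strand for Tmem59, chr4:108118548-108118797 on the - strand for Scp2 and chr4:116994414-116994663 on the - strand for Urod. Capitals mark the letters of a GC box (GGGCGG, or CCGCCC on the other strand) or of a CCAAT box (CCAAT or ATTGG).
Tmem59: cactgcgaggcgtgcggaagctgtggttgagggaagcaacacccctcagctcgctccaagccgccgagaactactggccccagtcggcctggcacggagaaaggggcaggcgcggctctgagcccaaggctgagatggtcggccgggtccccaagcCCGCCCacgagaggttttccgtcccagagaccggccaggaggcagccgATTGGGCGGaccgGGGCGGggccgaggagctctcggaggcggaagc
Scp2: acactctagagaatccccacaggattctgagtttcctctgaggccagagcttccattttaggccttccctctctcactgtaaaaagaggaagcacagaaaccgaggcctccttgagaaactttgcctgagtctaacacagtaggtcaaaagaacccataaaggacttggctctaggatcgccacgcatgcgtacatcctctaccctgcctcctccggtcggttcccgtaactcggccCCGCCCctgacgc
Urod: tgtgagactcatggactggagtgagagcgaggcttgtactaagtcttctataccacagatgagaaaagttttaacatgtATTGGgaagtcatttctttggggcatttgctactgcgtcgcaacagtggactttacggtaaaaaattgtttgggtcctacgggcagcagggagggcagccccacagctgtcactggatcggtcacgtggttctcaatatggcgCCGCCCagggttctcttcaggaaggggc
The window of Tmem59 held 3 GC boxes and 1 CCAAT box, which overlaps a GC box, that of Scp2 held 1 GC box, and that of Urod held 1 of each. A promoter was found in the table for 47 of the 50 measured members, and 31 of these windows (66.0%) held a GC box on either strand, against 32.9% of all 27025 promoters in the table. A CCAAT box was in 29.8% of the members' windows and in 34.5% of all, and the letters TATAAA, searched on both strands, were in 3 of the 47 and in 3504 of the 27025. Among the members, a GC box was in 18 of the 26 windows of members lower on all 4 arrays and in 13 of the 21 others. The windows of the members had a median GC content of 59.2%, against 52.0% over all promoters, and a match of letters is a description, not a binding site. All promoters include those of genes not measured here, so the members were not set against other measured genes.

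Of the 11 measured members in lipid, hormone and redox metabolism, 6 were lower (12.3% of all genes) and 0 higher (14.6%) on all 4 arrays. Their median log2 ratio was -0.35. Besides Scp2 and Urod, the lowest were Cpt2 and Prdx1. Cpt2, the inner membrane enzyme that releases long-chain fatty acids from carnitine for oxidation, had ratios of -0.76, -0.68, -0.43 and -0.41, all low and lower in pair 1, with a mean of -0.57 ± 0.21 (SD, n = 2 pairs). Prdx1, a peroxiredoxin that reduces hydrogen peroxide, had ratios of -0.59, -0.91, -0.35 and -0.23 and a mean of -0.52 ± 0.33 (SD, n = 2 pairs). For both genes each Cdc25a;neu mouse lay below both neu mice. Cmpk1, the nucleotide kinase for CMP and UMP, and Faah, the hydrolase of fatty acid amides, were the other 2 lower on all 4 arrays, with means of -0.33 ± 0.13 and -0.08 ± 0.02 (SD, n = 2 pairs). Txndc12, a thioredoxin-like protein of the endoplasmic reticulum, had a mean of -0.49 ± 0.35 (SD, n = 2 pairs), but its spot in pair 2 with Cdc25a;neu in Cy5 carried an outlier flag, so pair 2 rests on 1 array at -0.25. Osbpl9, an oxysterol-binding protein relative, was low in pair 1 at -0.73 and stood at 0.02 in pair 2. The means of the acyl-CoA thioesterase gene Acot11, the deiodinase gene Dio1, which activates thyroid hormone, and Gpx7, a glutathione peroxidase relative, were -0.0066, 0.07 and 0.11.

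Of the 8 measured members that encode transporters or glycosylation enzymes, 5 were lower (12.3% of all genes) and 0 higher (14.6%) on all 4 arrays. Their median was -0.32. Atp6v0b, a subunit of the proton pump that acidifies lysosomes, had ratios of -1.002, -0.33, -0.67 and -0.37 and a mean of -0.59 ± 0.10 (SD, n = 2 pairs). In both pairs the array with Cdc25a;neu in Cy5 was the lower of the pair for this gene, and all 4 arrays were low. Slc5a9, a sodium-coupled sugar transporter, had ratios of -0.71, -0.73, -0.40 and -0.35, with a mean of -0.55 ± 0.25 (SD, n = 2 pairs). Its dye orientations lay close together within each pair, and pair 1 was the lower. Pdzk1ip1, a small membrane protein that acts with sodium-glucose transporters, had ratios of -0.68, -0.35, -0.25 and -0.36 and a mean of -0.41 ± 0.15 (SD, n = 2 pairs). The Cdc25a;neu mice lay below the neu mice for all 3 of these genes. Pomgnt1, which extends the mannose sugars of dystroglycan, and the sialyltransferase gene St3gal3 were also lower on all 4 arrays, with means of -0.40 ± 0.25 and -0.23 ± 0.08 (SD, n = 2 pairs). The nucleotide sugar transporter gene Slc35d1 was at -0.14 ± 0.17 and the galactosyltransferase gene B4galt2 at 0.04 ± 0.03. Slc6a9, the glycine transporter GlyT1, went opposite ways in the pairs, at -0.30 in pair 1 and 0.23 in pair 2.

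Among the 11 measured members in transcription, chromatin and RNA, 8 were lower on all 4 arrays (12.3% of all genes) and 1 was higher (14.6%). The median was -0.41. Foxj3, a forkhead transcription factor, had ratios of -0.66, -0.86, -0.35 and -0.38 and a mean of -0.56 ± 0.28 (SD, n = 2 pairs). Although both pairs were low, the levels overlapped between genotypes: the Cdc25a;neu mouse of pair 2 had a log2 signal of 9.09 and the neu mouse of pair 1 had 8.86. Dmap1, a subunit of the TIP60 histone acetyltransferase complex, had ratios of -0.71, -0.73, -0.60 and -0.20, with a mean of -0.56 ± 0.22 (SD, n = 2 pairs). Magoh, a core protein of the complex left on spliced exon junctions, had ratios of -0.9985, -0.67, -0.18 and -0.18 and a mean of -0.51 ± 0.46 (SD, n = 2 pairs), which rests mainly on pair 1. Ybx1, a cold shock protein that binds messenger RNA, had ratios of -0.69, -0.37, -0.78 and -0.12. Its arrays with Cdc25a;neu in Cy5 were the lower ones in both pairs, but the pair means were close, and the mean was -0.49 ± 0.06 (SD, n = 2 pairs). Ppih, a cyclophilin of the spliceosome, had ratios of -0.51, -0.50, -0.44 and -0.30 and a mean of -0.44 ± 0.10 (SD, n = 2 pairs). The 4 array values of Ppih stood close together, and the mice did not overlap. The Mediator subunit gene Med8 (-0.41 ± 0.13) and Ssbp3, a cofactor of LIM-domain factors (-0.36 ± 0.10), were also lower on all 4 arrays. Nasp, a histone chaperone, was at -0.65 in pair 1 and -0.10 in pair 2.

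Elavl4, a neuronal RNA-binding protein, was the member of this group that was higher on all 4 arrays, at 0.04, 0.04, 0.12 and 0.05, a mean of 0.06 ± 0.03 (SD, n = 2 pairs). Tal1, a transcription factor of blood and endothelial cells, had a mean of -0.001 ± 0.10 (SD, n = 2 pairs) and was among the members of lowest signal. Hivep3, the zinc finger factor at the far end of the interval, had ratios of -0.44, -0.36, -0.34 and -0.08, a mean of -0.30 ± 0.13 (SD, n = 2 pairs). With processed signals, the scanner's log ratio and the authors' table the mean was -0.76, -0.76 and -0.73, so its size depends on the signals used. All 4 arrays were low on this probe, which was matched through a former symbol. The mice overlapped, since the Cdc25a;neu mouse of pair 2 had a log2 signal of 6.89 and the neu mouse of pair 1 had 6.84. A dimmer kept probe that carries the symbol Hivep3 had -0.21, -0.24, 0.02 and -0.01, a mean of -0.11, so it was low in pair 1 only.

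Of the 12 measured receptors, kinases and other signalling genes, 4 were lower on all 4 arrays (12.3% of all genes) and 1 was higher (14.6%). Their median was -0.11. Ror1, the receptor tyrosine kinase relative at the near end of the interval, had ratios of 0.04, -0.10, 0.03 and 0.02 and a mean of -0.004 ± 0.04 (SD, n = 2 pairs), close to 0 on each array, and -0.16 with median centring. Dab1, the adaptor of the reelin pathway, was higher on all 4 arrays at 0.15, 0.05, 0.16 and 0.11, a mean of 0.12 ± 0.02 (SD, n = 2 pairs). Both higher members, Dab1 and Elavl4, had dim spots, and their sizes moved with the signals used. Dab1 was at 0.06 with median centring, 0.32 with processed signals and 0.42 in the authors' table, and Elavl4 was at 0.12 with processed signals and 0.18 in that table. Mknk1, a kinase that phosphorylates a translation initiation factor, had ratios of -0.89, -0.79, -0.03 and -0.19 and a mean of -0.47 ± 0.51 (SD, n = 2 pairs), so pair 1 carried most of the difference. Mast2, a microtubule-associated kinase, had ratios of -0.74, -0.57, -0.30 and -0.10 and a mean of -0.43 ± 0.32 (SD, n = 2 pairs). Its levels overlapped narrowly, at 8.69 in the Cdc25a;neu mouse of pair 2 and 8.68 in the neu mouse of pair 1. Prkaa2, a catalytic subunit of the energy sensor AMPK, was lower by about the same amount in both pairs, with a mean of -0.26 ± 0.02 (SD, n = 2 pairs), and Eps15, a protein of endocytic pits, had a mean of -0.33 ± 0.25, against -0.82 in the authors' table. The ubiquitin ligase gene Rnf11 was at -1.01 in pair 1, the lowest pair value of this group, and at -0.19 in pair 2. The receptor phosphatase gene Ptprf was at -0.21 ± 0.06, the lipoprotein receptor gene Lrp8 at 0.06 ± 0.06 and Faf1, which binds the death receptor Fas, at -0.01 ± 0.008. Pde4b, a phosphodiesterase of cyclic AMP, went opposite ways, at -0.28 in pair 1 and 0.27 in pair 2.

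Of the 3 measured mitochondrial members, Mrpl37, a protein of the mitochondrial ribosome, was lower on all 4 arrays, with a mean of -0.17 ± 0.02 (SD, n = 2 pairs). Atpaf1, an assembly factor of the ATP synthase, was at -0.61 in pair 1 and -0.0083 in pair 2. Oma1, an inner membrane protease, had a mean of 0.02 ± 0.03 (SD, n = 2 pairs). Of the 5 remaining members, 4 were lower on all 4 arrays (12.3% of all genes), Tmem59 among them. Ipo13, a nuclear import receptor, had ratios of -0.72, -0.47, -0.82 and -0.19 and a mean of -0.55 ± 0.07 (SD, n = 2 pairs), or -0.80 with processed signals. Its arrays with Cdc25a;neu in Cy5 were lower than the swapped arrays in both pairs, and its mice overlapped, at 7.68 in the Cdc25a;neu mouse of pair 2 and 7.61 in the neu mouse of pair 1. The Golgi protein gene Yipf1 was at -0.26 ± 0.11 and Ipp, which encodes an actin-binding kelch protein, at -0.38 ± 0.25 (SD, n = 2 pairs). Stil, a protein needed for centriole duplication, was at -0.011 ± 0.02.

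In 14 members more than 1 probe was kept, and for 2 of them, Jak1 and Dmap1, the probes lay over 0.5 apart. Jak1, the kinase that serves many cytokine receptors, had ratios of -0.04, 0.02, 0.04 and 0.09 on the probe that carries its symbol, a mean of 0.03 ± 0.05 (SD, n = 2 pairs). A brighter probe, matched to Jak1 only through a listed accession, had -1.14, -0.91, -0.45 and -0.51, a mean of -0.75. The second Dmap1 probe, also matched only through a listed accession and dimmer, had a mean of -0.04. For Jak1 the direction therefore depends on which probe stands for the gene. The 3 kept probes of Ybx1 gave means between -0.49 and -0.47, and the 3 of Dab1 between 0.07 and 0.14. The 3 of Mknk1 ran from -0.47 for the brightest to -0.05 for the dimmest, and the second probe of Faf1 was at -0.28. The second probe of St3gal3 was at 0.04, above 0, while the probe that stands for this gene was at -0.23. The second, dimmer probe of Atpaf1 was at 0.002 in pair 1 and -0.12 in pair 2, without the low pair 1 value of the brighter one. The 3 kept probes of Pde4b ran from -0.02 to 0.31, the highest at -0.10 in pair 1 and 0.72 in pair 2.

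The pairs differed in how low the members were. The median was -0.43 in pair 1 and -0.18 in pair 2, and pair 1 was the lower of the pairs for 41 of the 50 members, as it was for 51.4% of all genes. A gap of over 0.5, with pair 1 lower, was seen for 8 members (4.47% of all genes): Pde4b, Magoh, Osbpl9, Rnf11, Atpaf1, Mknk1, Nasp and Slc6a9. No member had pair 2 lower than pair 1 by that much, and Scp2 (-0.79 and -1.01) and Slc35d1 (-0.02 and -0.27) had the widest gaps in that direction. Across the 50 members the pair 1 and pair 2 ratios had a Pearson correlation of 0.65, against 0.35 across all 32600 genes with both pairs. Both pairs of a gene share its probe and spot signal, so these correlations across genes are descriptions. Each pair holds 1 mouse of each genotype, so a difference between the pairs cannot be told apart from a difference between single mice.

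Levels in the 4 mice were taken from the separate channels, as the mean log2 signal of a mouse over both dyes, and are compared within a probe only. Both Cdc25a;neu mice lay below both neu mice for 25 members (11.2% of all genes) and above both for 4 members (8.48% of all genes), namely Dab1, Gpx7, Elavl4 and B4galt2. Of the 16 lower members whose array values are given above, 13 showed no overlap once Foxj3, Ipo13 and Mast2 are set aside. The spread between the neu mice was itself wide for some members, such as Foxj3 at 8.86 and 9.46 and Ipo13 at 7.61 and 8.18.

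**Figure D2:**
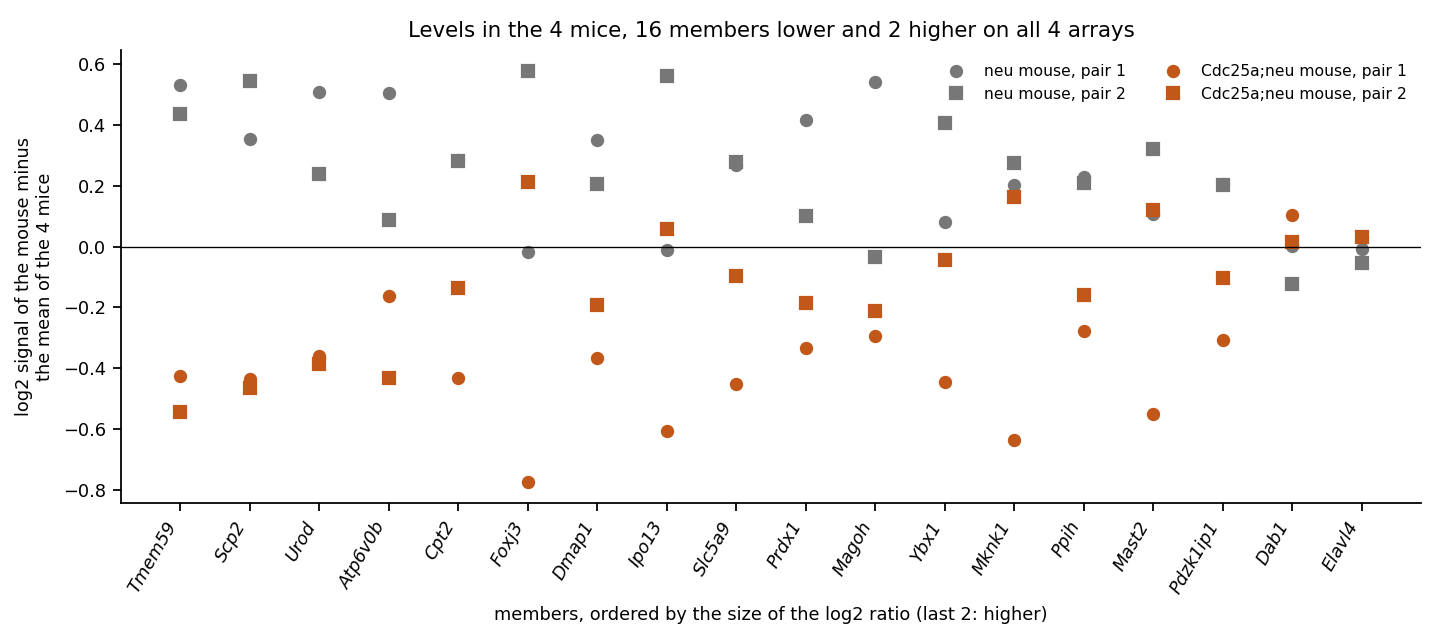
Log2 signal in each of the 4 mice minus the mean of the 4 mice (vertical axis) for the 16 members with the largest mean differences among those lower on all 4 arrays and for the 2 higher on all 4 arrays. Grey marks are neu mice, orange marks Cdc25a;neu mice, circles pair 1 and squares pair 2; the colours separate for Tmem59, Scp2 and Urod and overlap for Foxj3, Ipo13 and Mast2.

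By position, the list was cut into 4 stretches of 14, 14, 14 and 13 listed members. The first, Ror1 to Tmem59, had a median log2 ratio of -0.0066 over 11 measured members. Of these, 4 were lower on all 4 arrays, as were 12.3% of all genes. The second, Dio1 to Elavl4, had a median of -0.33, with 5 of 13 lower on all 4 arrays. The third, Slc5a9 to Urod, and the fourth, Dmap1 to Hivep3, had medians of -0.39 and -0.42, with 10 of 14 and 9 of 12 lower. The medians by pair were -0.03 and -0.04 in the first stretch, -0.51 and -0.16 in the second, -0.60 and -0.21 in the third and -0.45 and -0.37 in the fourth. In a division made after the values were seen, the 7 measured members from Ror1 to Prkaa2 had a median of -0.004, with Prkaa2 alone lower on all 4 arrays, and the 43 that follow Prkaa2 a median of -0.37, with 27 lower on all 4. All 7 had a log2 signal below the members' median of 8.14, and a brighter probe of Jak1 was at -0.75. Of the other genes from Ror1 to Prkaa2, Raver2 (-0.26), Dnajc6 (-0.43), Leprot (-0.48) and Wdr78 (-0.24) were lower on all 4 arrays. Sgip1 (0.17) was higher on all 4, and the rest were neither.

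Spot signal moved with the ratio. With the members divided at their median log2 signal of 8.14, the 25 brighter ones had a median ratio of -0.47, with -0.67 in pair 1 and -0.29 in pair 2. Of these, 18 were lower on all 4 arrays, against 17.7% of all genes above that signal, and 0 were higher. The 25 dimmer members had a median of -0.011, with 10 lower on all 4 arrays, against 10% of all genes at or below that signal, and 2 higher. Spearman's correlation of signal and ratio across the 50 members was -0.73, and across all genes it was -0.04. The 7 brighter members not lower on all 4 arrays were Osbpl9, Rnf11, Faf1, Atpaf1, Nasp, Slc6a9 and Ptprf. Among the dimmer members, Ipo13, Txndc12 and Med8 had the lowest means, at -0.55, -0.49 and -0.41. An offset of 50 was added to every corrected signal, which draws the ratios of dim spots towards 0. With the scanner's processed signals, which carry no such offset, the median was -0.51 for the brighter members and -0.10 for the dimmer ones.

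Position and signal were linked in this list. Only 2 of 11 measured members of the first stretch were among the brighter 25, against 6 of 13, 10 of 14 and 7 of 12 in the others. Within each stretch, the brighter members had medians of -0.67, -0.54, -0.42 and -0.49 from the first to the fourth. The dimmer members had medians of -0.0063, 0.06, -0.04 and -0.30. The part of signal in the order of the stretches was not tested.

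**Figure D3:**
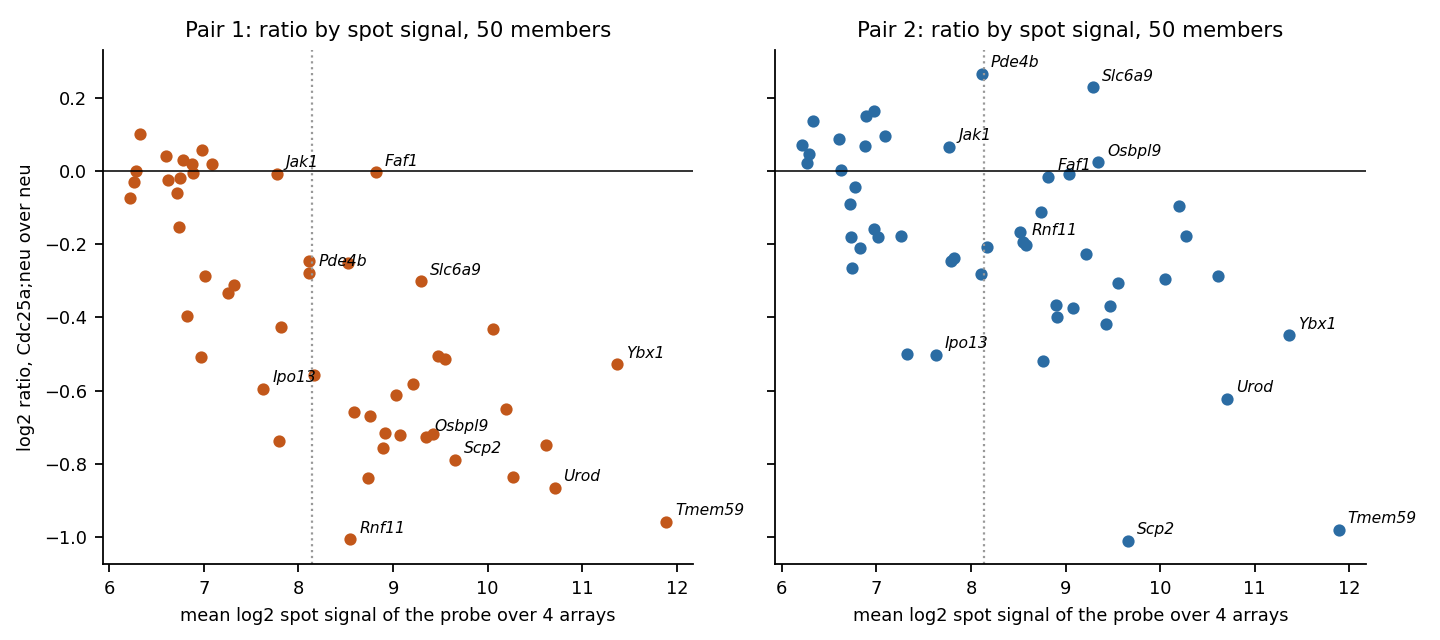
Log2 ratio of Cdc25a;neu over neu (vertical axis) against the mean log2 spot signal of each probe over the 4 arrays (horizontal axis) for the 50 measured members, pair 1 on the left and pair 2 on the right; the dotted line marks the median signal of 8.14. The brighter members, right of the line, have medians of -0.67 in pair 1 and -0.29 in pair 2, lower than the dimmer ones at -0.06 and -0.04, and Tmem59, Scp2 and Urod are low in both.

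The members are a selection from the interval, and the other 115 measured named genes between Ror1 and Hivep3 had a median log2 ratio of -0.05. Of these, 36 (31.3%) were lower and 14 (12.2%) higher on all 4 arrays. The lowest means among them were those of Slc2a1, the glucose transporter GLUT1, at -1.07, Tspan1 at -0.95, Cc2d1b at -0.79 and Echdc2 at -0.70, named after their values were seen. Tspan1, a tetraspanin, was at -1.82 in pair 1 and -0.07 in pair 2. The 36 of the 115 that were brighter than the members' median signal had a median of -0.12, with 15 lower on all 4 arrays. Among all genes above that signal 17.7% were lower on all 4 arrays, and among those of chromosome 4 before Ror1 23.2%. The 14354 measured named genes outside chromosome 4 had a median of -0.0024, with 13.7% lower on all 4 arrays. Since the interval was chosen by the ratios of these same arrays, the values of its other genes are a description too.

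Low ratios did not stop at the ends of the list. The 10 measured genes next before Ror1 had a median of -0.23, with 6 lower and 0 higher on all 4 arrays. The 10 next after Hivep3 had a median of -0.22, also with 6 lower and 0 higher. Over all genes, 12.3% were lower and 14.6% higher on all 4 arrays. Another listed stretch of chromosome 4, from Edn2 to Adgrb2, begins just after Hivep3. The genes there may have been picked by the same ratios, so nothing is read from their count. Just outside the ends, Pgm1 before Ror1 had a mean of -0.34 and Edn2 after Hivep3 a mean of -0.03. Just inside, Ror1 was at -0.004 and Hivep3 at -0.30 (-0.76 with processed signals, and -0.11 on the probe that carries its symbol). Farther out after Hivep3, Cited4, a transcriptional cofactor, was at -1.04 in the mean. All 328 measured named genes of chromosome 4 that lie before Ror1, those 10 included, had a median of -0.02, with 16.8% lower on all 4 arrays.

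**Figure D4:**
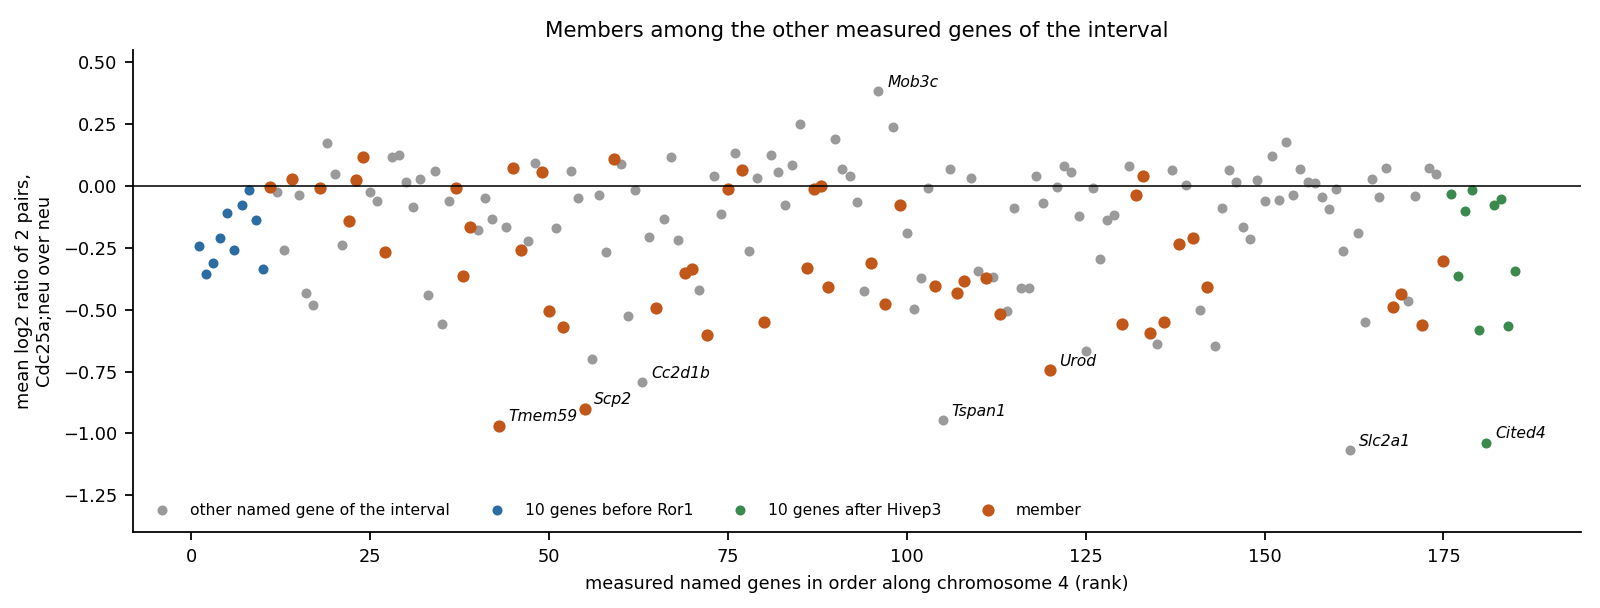
Mean log2 ratio of both pairs (vertical axis) for the measured named genes from 10 places before Ror1 to 10 places after Hivep3, in their order along chromosome 4 (horizontal axis, rank); orange marks are members, grey marks the other 115 genes of the interval, blue and green marks the genes on either side. Members and other genes both reach below -0.70, many other genes lie close to 0, and genes on both sides of the interval are below 0 in their means.

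Markers of other cell types differed between the same tumours. Of the 10 adipocyte markers, 7 were lower on all 4 arrays (12.3% of all genes), with a median log2 ratio of -0.94. Their summed signal was 7353.5 and 16070.1 in the neu mice against 2800.9 and 3273.1 in the Cdc25a;neu mice. For the 6 skeletal muscle markers the median was 0.01 in the first pair and -1.36 in the second, with summed signals of 1067.0 and 3918.3 in the neu mice and 987.8 and 1153.4 in the Cdc25a;neu mice. The 6 macrophage markers had medians of -0.38 and 0.53 in pairs 1 and 2, and their summed signal was 9939.6 and 9798.1 in the neu mice and 7493.2 and 35199.4 in the Cdc25a;neu mice. All 12 markers of luminal epithelium, the labelled tissue's own cell type, were measured. Their median was -0.15, at 0.09 in pair 1 and -0.15 in pair 2, and 2 were lower on all 4 arrays. Their summed signal in pairs 1 and 2 was 111389.6 and 138911.1 in the neu mice and 114331.7 and 100426.8 in the Cdc25a;neu mice. The 7 fibroblast markers had a median of -0.16, at -0.36 in pair 1 and 0.04 in pair 2. The medians of the other lists were 0.10 for endothelium, 0.07 for myoepithelium, -0.05 for T and NK cells and 0.0006 for B cells. The members and the macrophage, fibroblast, myoepithelium and endothelium lists had the lower median in pair 1. The adipocyte, muscle, luminal epithelium, T and NK cell and B cell lists had it in pair 2. The part of these cell types in the ratios of the members was not tested.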

How the data were processed

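The members and lists were chosen with earlier results of these data known. The authors deposited scanner files from Agilent Feature Extraction, version 7.5.1 per the file headers and 7.2 per the submitters' processing notes. Per the file headers these give spot intensities, signals processed by the scanner software, and a log10 ratio of the red to the green signal. The authors' deposited value table is on a natural log scale, found by its slopes of 2.27 to 2.29 when set against that log10 ratio where both processed signals were above 3000. Its column medians were 0.0007 to 0.0209, and its centring is not stated in the sources used. It served as an alternative only.

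Intensities were corrected by normexp (offset 50) and loess within each array with limma 3.58.1 (R 4.3.3). Control spots had no weight and were left out, as were flagged spots. A probe was kept if either channel was well above background on 2 or more of the 4 arrays (37177 of 41174), and the brightest stood for its gene. A probe named only by a listed RefSeq accession stood for a gene without any other. Swapped arrays were turned and the arrays of a pair averaged (n = 2 pairs). The labels do not say how mice were chosen for a pair. limma tested the mean pair ratio over all genes, two-sided, with Benjamini-Hochberg adjustment at 0.05. A run on simulated pair ratios checked only the size of the estimates, and how many planted changes passed is not given here. Levels per mouse came from separate channels after Aquantile. Array values are given for up to 16 members lower and 6 higher on all 4 arrays, by size, for members with probes over 0.5 apart or pairs over 1 apart (0 members), and for both ends. Names, order and promoters came from RefSeq (GRCm38.p6), since the files name no build. With 1 array per slide, no test of slide as a batch was possible. Alternatives covered signals, normalization, filters, probe rules, fits and each array left out.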

Additional observations from a re-analysis of the deposited data

Results flagged for a closer look

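In 4 members the sign of the ratio followed the dye in both pairs, so that both arrays with Cdc25a;neu in Cy5 went one way and both swapped arrays the other. For B4galt2 the mean with Cdc25a;neu in Cy5 was -0.17 and with it in Cy3 0.26, a difference of -0.43. For Oma1 the means were 0.13 and -0.08, a difference of 0.22. Tal1 had 0.10 and -0.10, a difference of 0.20, and Faf1 had 0.07 and -0.09, a difference of 0.16. The differences between the orientations were not tested. The mean over both orientations, given for these genes above, weights them equally.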

How the results depend on the processing

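All 16 lower members with array values stayed lower in the mean under their 12 alternatives (other signals, normalization, filters, probe rules and each array left out). They were picked for being below 0 on all 4 arrays, so leaving 1 array out could not turn a mean. Filters and probe rules return the same value for a gene with 1 probe, so only other signals and normalization could have turned such a gene. The mean over all kept probes moved Dmap1 to -0.30 and Mknk1 to -0.24. The members' median ranged from -0.44 to -0.29 over all settings. With median centring, 15 members were lower and 0 higher on all 4 arrays, with no share of all genes under that setting beside them. With it, 862 of 32603 genes and 4 of 50 members passed limma. Taking the 4 arrays as units called 882 of 32603 genes and 9 of 50 members. Why these settings called more genes was not tested. Arrays as units count each RNA more than once, since both arrays of a pair carry the same RNA. Members higher on all arrays numbered 1 with processed signals, 1 with the scanner's log ratio and 1 with the strict filter, and 2 to 5 with 1 array left out, when fewer arrays had to share a sign (28 to 33 lower). With processed signals the dimmer members' median was -0.10. Median of other genes of the interval stayed at -0.05 without the filter. No member was in the set left out for near-equal ratios. With separate channels, the fit without a block and the fit with pair as a replicate block each called 0 genes. In settings chosen after seeing the data, the measured members matched by gene name gave 22 lower on all 4 arrays and a median of -0.31. They are a smaller set than the 50. Letting any listed-accession probe stand for a gene gave 28 and -0.34, with Jak1 at -0.75. Both Cdc25a;neu mice lay below both neu mice for 19 members without Aquantile and 21 with median centring. For the alternatives, the counts of members lower or higher on the arrays or by mouse have no share of all genes beside them, so nothing is read from them. With 2 pairs, differences between mice limit every value.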
